A study of Mus musculus with 4 samples.

Results

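The ATF4 axis and the serine and one-carbon enzymes that it is known to drive were followed through 10 genes, Atf4, Ddit3, Trib3, Chac1, Asns, Phgdh, Psat1, Psph, Shmt2 and Mthfd2. They were found by matching the identifiers of the deposited tables, without their version, to gene symbols, and all 10 were among the 55487 identifiers. Averaged over the libraries, each also reached 1 CPM (the count scaled to library size), a minimum that 15596 genes met. RNA sequencing had been done on astrocytes from mice in primary culture, labelled OASIS wild type or OASIS deficient and either untreated or exposed to doxorubicin at 1 µg/ml for 1 h and kept in fresh medium for 24 h. OASIS, the product of Creb3l1, is a transcription factor anchored in the endoplasmic reticulum membrane, and doxorubicin is a topoisomerase II poison that breaks DNA. The series asks how loss of OASIS changes expression during the response to DNA damage. Each pairing of genotype with treatment had 1 library, 4 in all. The sources used here give neither the allele, nor the number of animals behind a culture, nor whether cultures were pooled.

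ATF4 is a transcription factor whose mRNA is translated more when the initiation factor eIF2α is phosphorylated, as happens under amino acid shortage or endoplasmic reticulum stress, so its protein can change without its mRNA. It turns on genes for amino acid supply and stress signalling by binding C/EBP-ATF response elements, often together with a C/EBP partner. Serine is made from a glycolytic intermediate by Phgdh, Psat1 and Psph, and mitochondrial Shmt2 and Mthfd2 pass its side-chain carbon into the folate pool that feeds purine and thymidylate synthesis. In the brain astrocytes are known as the main makers of serine.

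Total counts were 17481188 to 22559613 per library. Creb3l1 had 966 counts in the library labelled wild type untreated and 636 in the one labelled wild type doxorubicin, against 260 and 235 in the libraries labelled deficient untreated and deficient doxorubicin. The deficient libraries thus held 31.1% (27.1 to 35.8) and 42.8% (36.7 to 49.8) of the scaled wild-type count, and which stretch of the gene was altered is not stated in the labels. The treatment labels coincided with a difference in sex-chromosome genes. Xist was at 111 and 139 CPM in the libraries labelled doxorubicin and at 0.0502 and 0 CPM in the untreated ones, while Ddx3y, Eif2s3y, Kdm5d and Uty were at 0 in both libraries labelled doxorubicin and at 17.7 to 78.7 CPM in the untreated ones. Treatment and the sex of the cells cannot be told apart in these libraries, and whether each label belongs to its library was not settled by these files, so every genotype and treatment difference given here is one between labels. Of 16 p53 target genes, 0 differed by 2-fold between treatment labels in either genotype, and 14 were at least 2-fold lower in the deficient library at each treatment label, with summed levels of 5144 and 5714 CPM in wild type and 1065 and 1138 CPM in deficient cells. All 12 cell division genes were at least 2-fold higher in the deficient library at each treatment label, with sums of 55.8 and 69.2 CPM in wild type and 960 and 1411 CPM in deficient cells. Astrocyte markers were present in every library, with 12 of 12 measured and sums of 4004 to 11460 CPM.

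Of the 10 members, 3 carried a C/EBP-ATF response element near their start, and the sequences of all 3 are shown. Seen afterwards, these members had the lowest ratios of doxorubicin to untreated in wild type (the interval of the Trib3 ratio held 1). This did not hold in deficient cells. There Chac1 (0.929) and Asns (0.980) lay above Shmt2 (0.848), Mthfd2 (0.895) and Psph (0.916), which have no match. The element was searched as TGATGNAA on both strands of RefSeq promoter windows of GRCm38.p6, each from 250 bases before to 50 bases after an annotated start. All 10 members had a window, 11 in total, and 3.97% of all 32851 windows held a match. The cAMP response element TGACGTCA (1.79% of all windows) and the endoplasmic reticulum stress element (CCAAT and CCACG with 9 unspecified bases between them, 0.119%) matched no member window. Capitals mark the match, and each sequence is written 5′ to 3′ on the strand of the gene.
Chac1, 250 bases before the start, chr2:119350992-119351241, plus strand: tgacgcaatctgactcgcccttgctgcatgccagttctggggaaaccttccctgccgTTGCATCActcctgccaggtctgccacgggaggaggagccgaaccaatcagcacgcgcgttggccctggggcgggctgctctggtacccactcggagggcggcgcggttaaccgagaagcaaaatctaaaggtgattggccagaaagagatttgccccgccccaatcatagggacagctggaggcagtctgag
Trib3, 28 bases around the match, chr2:152344029-152344056, minus strand: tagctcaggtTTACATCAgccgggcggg
Asns, 250 bases before the start, chr6:7693210-7693459, minus strand: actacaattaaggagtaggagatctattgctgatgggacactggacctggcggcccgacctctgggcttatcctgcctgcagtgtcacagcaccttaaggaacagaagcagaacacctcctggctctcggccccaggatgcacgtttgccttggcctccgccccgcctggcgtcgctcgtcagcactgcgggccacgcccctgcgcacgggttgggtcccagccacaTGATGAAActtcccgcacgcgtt
The match lies at -193 to -186 from the start in Chac1, reading TTGCATCA because the element is on the opposite strand, and at -23 to -16 in Asns, reading TGATGAAA on the strand of the gene. In Trib3 it lies at 15 to 22 bases after the RefSeq start, on the opposite strand, and outside the GENCODE gene model, whose 5′ end is at 152344032. A match of letters is a description and shows no binding. Among all genes tested with a window, 8.25% of the 303 with a match and 4.83% of the 10832 without were at least 2-fold lower in wild type with doxorubicin, and 4.95% and 3.8% were at least 2-fold higher. In the genotype comparisons too, the share at least 2-fold apart was larger among genes with a match, in both directions. In untreated cells 12.2% against 9.02% were lower and 13.2% against 9.56% higher. In doxorubicin cells 11.2% against 8.71% were lower and 15.2% against 10.7% higher. The difference was thus not limited to lower values with doxorubicin. In deficient cells with doxorubicin 2.64% against 1.66% were lower and 0.66% against 1.43% higher.

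Levels of different genes were compared in the deposited TPM, which is scaled per transcript length. Phgdh was the most abundant member in every library, at 182 to 270 TPM, followed by Psat1 at 128 to 138 TPM and Atf4 at 77.2 to 102 TPM, and these ranges did not overlap. Psph (54.3 to 75.8 TPM), Ddit3 (30.2 to 71.1 TPM) and Shmt2 (28.4 to 43.8 TPM) came next with overlapping ranges, and the range of Asns (15.6 to 28.9 TPM) overlapped those of Shmt2 and Mthfd2 (6.94 to 16.5 TPM). The lowest levels were those of Chac1, at 1.79 to 6.39 TPM, and Trib3, at 0.878 to 3.02 TPM, again overlapping. Psat1 varied least, with its highest TPM 1.07 times its lowest, and Chac1 most, with a factor of 3.56. On the CPM scale, used between libraries, Atf4 varied least (1.17, against 1.24 for Psat1) and Chac1 again most (3.87).

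**Figure D1:**
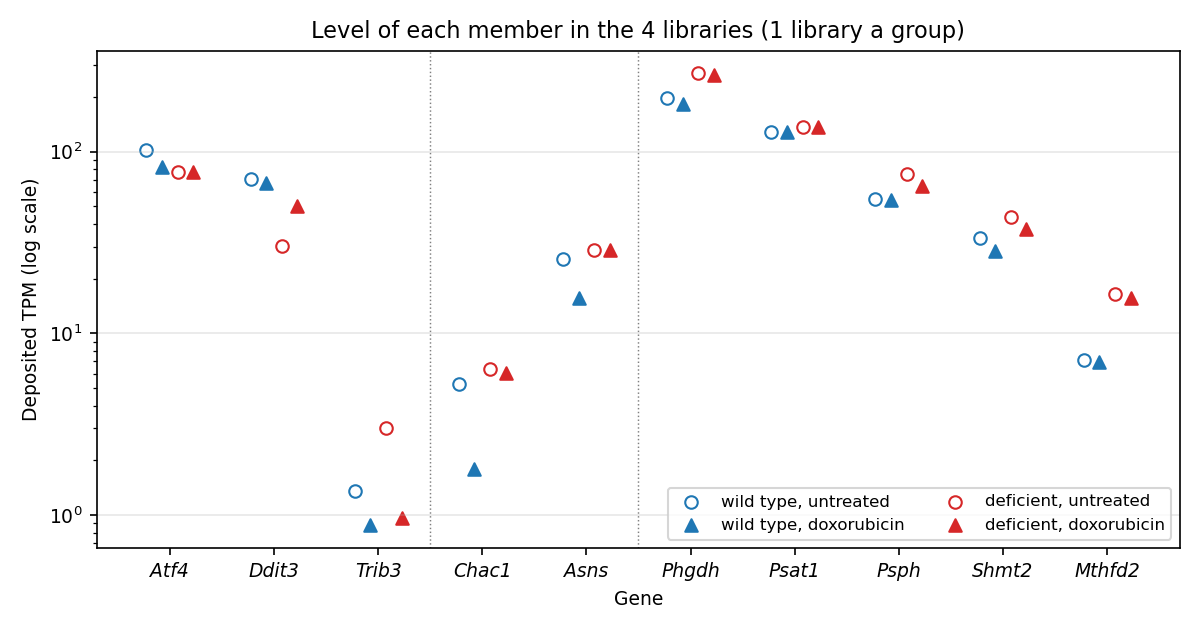
Deposited TPM (log axis) of the 10 genes in the 4 libraries, 1 point per library, with open circles for untreated and triangles for doxorubicin, blue for wild type and red for deficient. Phgdh, Psat1, Psph, Shmt2, Mthfd2, Asns and Chac1 lie higher in both deficient libraries than in both wild-type ones. Chac1 is low in the wild-type doxorubicin library alone and Trib3 is high in the deficient untreated library alone.

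Differences between genotypes and between treatments were read in 2 ways. Single libraries were compared as ratios of scaled counts with exact 95% intervals that cover counting error only, and a gene counted as 2-fold apart when log2(CPM + 1) differed by at least 1; these comparisons have no replicate check and no p-value. An additive model of genotype and treatment was fitted to all 15596 genes with edgeR's quasi-likelihood test, and a gene was called at a Benjamini-Hochberg adjusted p of at most 0.05. The model leaves 1 residual degree of freedom, in which noise and any genotype-dependent response are mixed, so its p-values reflect nothing beyond the spread among these libraries. In bulk RNA, fewer cells of a type and less RNA per cell cannot be told apart.

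Phgdh, Mthfd2 and Shmt2 were called higher in deficient than in wild-type cells, and Psat1 and Psph were not called. The summed level of these 5 serine and one-carbon enzymes was 569 CPM in wild type untreated, 579 CPM in wild type doxorubicin, 823 CPM in deficient untreated and 788 CPM in deficient doxorubicin. For all 5 enzymes the counting interval of the deficient to wild-type ratio lay above 1 in untreated cells and again in doxorubicin cells. Such intervals were common among the members. In untreated cells 8 of the 10 lay above 1, 2 below and 0 held 1, and in doxorubicin cells the counts were 7, 1 and 2. The share over all genes was not determined. The intervals compare single libraries and cover counting error only. In the additive model the called enzymes were 3 of the 10 members, where 12.6% of all genes tested were called higher. None was called lower (0 of 10, against 10.6% of all genes). Without adjustment, 5 members had p under 0.05 as higher and 1 as lower in edgeR. Of all 15596 genes, 5385 had such a p in either direction. DESeq2 called 2 members higher and 0 lower, against 1660 and 1286 of all genes. The counts of limma-voom were 4 higher and 0 lower, against 2320 and 1945. The median log2 fold change of the 10 members was 0.60, beside -0.01 over all genes tested.

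Phgdh, the dehydrogenase that commits carbon to serine (GRCm38, chromosome 3, 98313170 to 98339990, minus strand), was at 250 CPM in wild type untreated, 244 CPM in wild type doxorubicin, 393 CPM in deficient untreated and 374 CPM in deficient doxorubicin. Both deficient libraries stood above both wild-type ones, and the treatment labels differed little within a genotype. The deficient to wild-type ratio was 1.57 (1.51 to 1.63) in untreated and 1.53 (1.48 to 1.59) in doxorubicin cells. The additive log2 fold change was 0.63 (SE 0.109; edgeR's quasi-likelihood test, Benjamini-Hochberg adjusted p = 0.000510), and Phgdh was called under 7 of 7 alternative fits.

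Mthfd2, the mitochondrial methylenetetrahydrofolate dehydrogenase that is high in embryonic and dividing cells (chromosome 6, 83305691 to 83325908, minus strand), showed the largest additive difference of the 10. It was at 10.2 CPM in wild type untreated, 10.1 CPM in wild type doxorubicin, 26.3 CPM in deficient untreated and 23.6 CPM in deficient doxorubicin. The wild-type libraries were nearly equal and the deficient ones lay 2.58 (2.18 to 3.06) and 2.33 (1.98 to 2.73) times above them. The additive log2 fold change was 1.29 (SE 0.319; edgeR's quasi-likelihood test, Benjamini-Hochberg adjusted p = 0.00774), called under 7 of 7 alternative fits.

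Shmt2, the mitochondrial serine hydroxymethyltransferase (chromosome 10, 127517123 to 127522444, minus strand), was at 49.7 CPM in wild type untreated, 42.1 CPM in wild type doxorubicin, 73.8 CPM in deficient untreated and 62.6 CPM in deficient doxorubicin. Both deficient libraries stood above both wild-type ones, and within each genotype the doxorubicin library was the lower. The genotype ratio was 1.49 (1.37 to 1.62) at either treatment label. Its additive log2 fold change of 0.57 (SE 0.183; edgeR's quasi-likelihood test, Benjamini-Hochberg adjusted p = 0.0332) was the least secure of the called ones, since 3 of 7 alternative fits called it (adjusted p 0.0145 to 0.0749).

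Psat1, the phosphoserine aminotransferase, and Psph, the phosphatase that releases serine, were not called. Psat1 (chromosome 19, 15904678 to 15947337, minus strand) was at 201 CPM in wild type untreated, 219 CPM in wild type doxorubicin, 245 CPM in deficient untreated and 249.96 CPM in deficient doxorubicin. The groups did not overlap, but the genotype ratios were 1.22 (1.17 to 1.27) and 1.14 (1.10 to 1.19), with an additive log2 fold change of 0.24 (SE 0.117; edgeR's quasi-likelihood test, Benjamini-Hochberg adjusted p = 0.164). Psph (chromosome 5, 129765558 to 129787449, minus strand) was at 57.9 CPM in wild type untreated, 63.3 CPM in wild type doxorubicin, 84.8 CPM in deficient untreated and 77.6 CPM in deficient doxorubicin. Again both deficient libraries were the higher ones, by 1.46 (1.35 to 1.58) and 1.23 (1.14 to 1.32) times, and the additive log2 fold change was 0.42 (SE 0.170; edgeR's quasi-likelihood test, Benjamini-Hochberg adjusted p = 0.0876). On the deposited TPM scale, where the median log2 ratio of all genes was -0.21 in the untreated genotype comparison, the log2 ratio of Psat1 there was 0.10 and that of Phgdh 0.46, against 0.29 and 0.65 on the CPM scale.

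Markers of astrocytes, the oligodendrocyte lineage, neurons and cell division were mostly called higher in deficient cells. Those of microglia, fibroblasts and endothelium were mostly not called. Beside each of these lists stand the 12.6% of all genes tested called higher and the 10.6% called lower. In the additive model 9 of 12 astrocyte markers were called higher in deficient cells and 0 lower (sums of 4004 and 4110 CPM in wild type, 10121 and 11460 CPM in deficient cells), as were 9 of 10 markers of the oligodendrocyte lineage (346 and 473 CPM against 1069 and 1073 CPM) and 4 of 7 measured neuron markers (201 and 227 CPM against 407 and 433 CPM). Among the defining markers, Mog, Dcx and Snap25 were at 0 in both wild-type libraries, Sox10 and Mobp in the wild-type doxorubicin library and Rbfox3 in the wild-type untreated library. Nefl went the other way, at 3.11 and 1.48 CPM in wild type and 0.697 and 0 CPM in deficient cells, and was not called. Of 10 microglia markers 1 was called higher and 2 lower, with sums of 676 and 942 CPM in wild type and 582 and 892 CPM in deficient cells. Fibroblast markers gave 0 calls of 6 measured in edgeR, with 1 at an unadjusted p under 0.05, 0 in DESeq2 and 1 in limma-voom (202 and 378 CPM against 283 and 315 CPM), and endothelium markers 1 lower of 3 (8.08 and 11.6 CPM against 3.66 and 3.74 CPM), Tek being at 0 in both deficient libraries. All 12 cell division genes were called higher. The part of these differences in the levels of the serine and one-carbon enzymes was not tested.

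**Figure D2:**
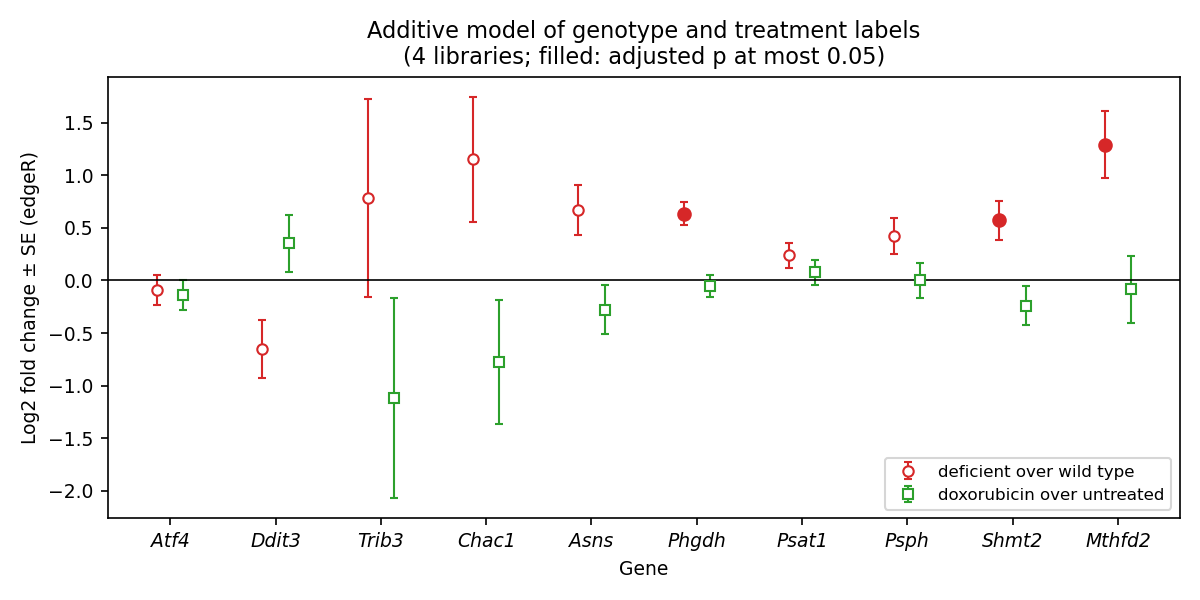
Log2 fold change ± SE from the additive edgeR model over 4 libraries, with circles for deficient over wild type, squares for doxorubicin over untreated, and filled symbols for an adjusted p of at most 0.05. The filled circles are Phgdh (0.63), Shmt2 (0.57) and Mthfd2 (1.29), and no square is filled.

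None of the 3 regulators was called in either direction. Atf4 itself (chromosome 15, 80255184 to 80257541, plus strand) was at 116 CPM in wild type untreated, 99.1 CPM in wild type doxorubicin, 102 CPM in deficient untreated and 98.6 CPM in deficient doxorubicin. The wild-type untreated library was the highest and the other libraries lay within 4 CPM of each other. The genotype ratio was 0.882 (0.829 to 0.939) in untreated and 0.995 (0.936 to 1.06) in doxorubicin cells, and the additive log2 fold change was -0.09 (SE 0.145; edgeR's quasi-likelihood test, Benjamini-Hochberg adjusted p = 0.707). These are mRNA values, and ATF4 protein was not measured here.

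Ddit3, which encodes the C/EBP-family factor CHOP, a target and partner of ATF4 (chromosome 10, 127290774 to 127296288, plus strand), was at 30.6 CPM in wild type untreated, 31.1 CPM in wild type doxorubicin, 15.3 CPM in deficient untreated and 24.9 CPM in deficient doxorubicin. The deficient untreated library stood lowest, at 0.501 (0.432 to 0.580) times the wild-type level, and the ratio in doxorubicin cells was 0.801 (0.713 to 0.900). The additive log2 fold change was -0.65 (SE 0.275; edgeR's quasi-likelihood test, Benjamini-Hochberg adjusted p = 0.102), so the lower value in deficient cells did not pass. A second identifier with the same symbol, which overlaps the first, had 0 counts in every library.

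Trib3, a pseudokinase that is a target of ATF4 and CHOP and feeds back on them (chromosome 2, 152337422 to 152344032, minus strand), was scarce, with 37 counts in wild type untreated, 29 in wild type doxorubicin, 81 in deficient untreated and 29 in deficient doxorubicin. Scaled, these were 1.86, 1.27, 4.71 and 1.47 CPM, so that the deficient untreated library alone stood out. The genotype ratio was 2.53 (1.70 to 3.85) in untreated cells and 1.16 (0.668 to 2.01) in doxorubicin cells. The additive model gave a log2 fold change of 0.78 with an SE of 0.944 (edgeR's quasi-likelihood test, Benjamini-Hochberg adjusted p = 0.616).

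The genotype ratios of Chac1 and Asns were larger in doxorubicin cells, where the wild-type library was low. Chac1, a glutathione-degrading enzyme (chromosome 2, 119351229 to 119354381, plus strand), was at 5.57 CPM in wild type untreated, 2.01 CPM in wild type doxorubicin, 7.78 CPM in deficient untreated and 7.23 CPM in deficient doxorubicin, from 111, 46, 134 and 143 counts. The wild-type doxorubicin library was the lowest of the 4. The genotype ratio was 1.40 (1.08 to 1.81) in untreated and 3.60 (2.56 to 5.13) in doxorubicin cells, and the additive log2 fold change was 1.15 (SE 0.594; edgeR's quasi-likelihood test, Benjamini-Hochberg adjusted p = 0.187).

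Asns, asparagine synthetase (chromosome 6, 7675169 to 7693254, minus strand), had the same order of libraries at a higher level, 32.1 CPM in wild type untreated, 22.3 CPM in wild type doxorubicin, 42.9 CPM in deficient untreated and 42.1 CPM in deficient doxorubicin. The wild-type doxorubicin library was again the lowest and the deficient libraries were nearly equal. The genotype ratio was 1.34 (1.20 to 1.49) in untreated and 1.89 (1.69 to 2.11) in doxorubicin cells. With an additive log2 fold change of 0.67 (SE 0.237; edgeR's quasi-likelihood test, Benjamini-Hochberg adjusted p = 0.0536) it just missed the call, and 2 of 7 alternative fits called it (adjusted p 0.0250 to 0.120).

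By size, few members differed by 2-fold between single libraries. In untreated cells 1 of the 10 was at least 2-fold higher in deficient than in wild type, Mthfd2, against 9.79% of all genes tested, and 0 were 2-fold lower, against 10.2%. Trib3, at a log2 ratio of 0.998, and Ddit3, at -0.95, lay just short of that limit. With the scaling of DESeq2 the split was 2 higher and 0 lower, and with total counts or TPM it was 1 higher and 1 lower, the lower one being Ddit3. In doxorubicin cells 2 were at least 2-fold higher, Chac1 and Mthfd2, against 10.7% of all genes, and 0 lower, against 9.55%. The median log2 ratio of the members was 0.48 in untreated and 0.43 in doxorubicin cells, beside -0.03 and 0.02 over all genes tested.

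**Figure D3:**
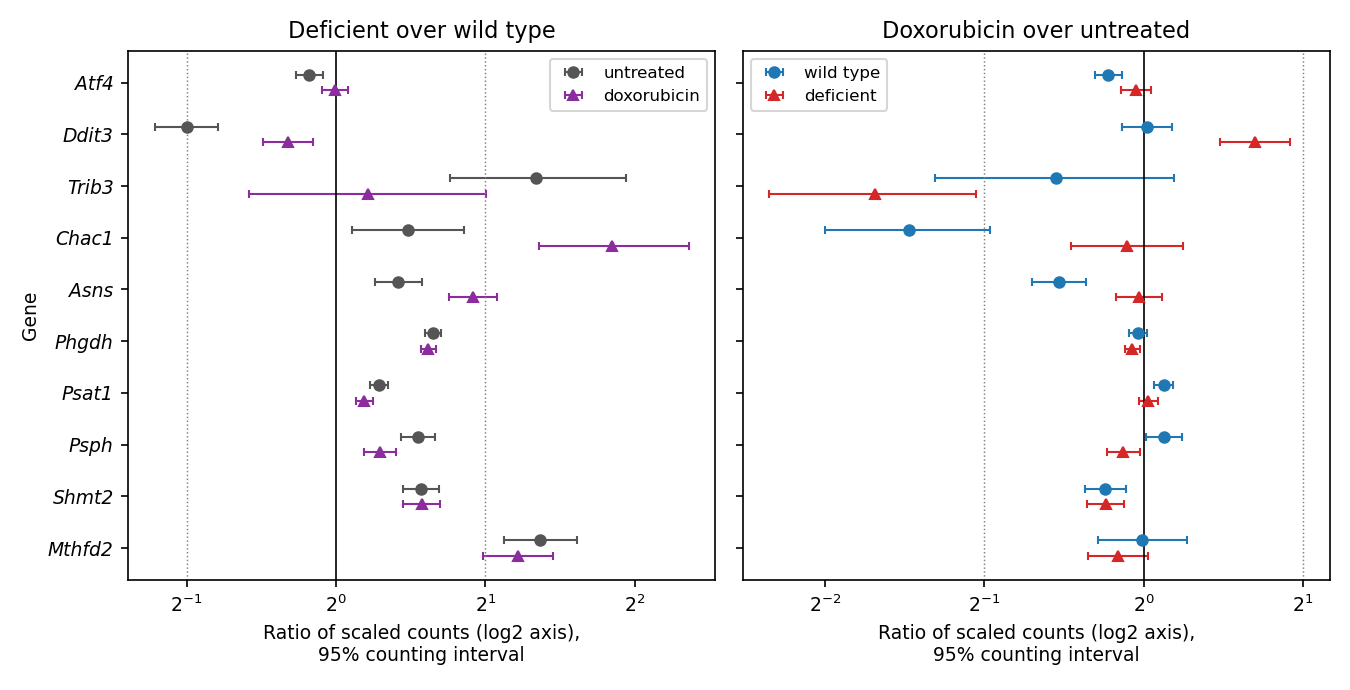
Ratio of scaled counts (log2 axis) of each gene with its 95% counting interval, deficient over wild type in the left panel and doxorubicin over untreated in the right panel, with 1 library on each side of every ratio. All 5 serine and one-carbon enzymes lie above 1 in both comparisons on the left, from 1.14 for Psat1 to 2.58 for Mthfd2, and the widest intervals are those of Trib3, which had 29 to 81 counts.

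The additive model called 0 of the 10 members with doxorubicin in either direction, where 0.0192% of all genes tested were called higher and 0.141% lower. Before adjustment edgeR also had 0 members with p under 0.05, where 864 of all 15596 genes had one. In limma-voom and DESeq2 0 members were called, with 4 adjusted p-values of DESeq2 not given. The fitted values furthest from 0 were those of Trib3 (-1.12, SE 0.948) and Chac1 (-0.77, SE 0.591), and the median of the members was -0.11 beside 0.01 over all genes. With 1 residual degree of freedom a response that depends on genotype widens these errors.

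Within each genotype single libraries were also compared by treatment label, with intervals that cover counting error only. How often such intervals lay away from 1 over all genes was not determined. In wild type, Chac1 was the only member 2-fold apart, at 0.360 (0.250 to 0.513) times its untreated level (1 of 10 lower, against 5.45% of all genes, and 0 higher, against 4.08%). Asns was at 0.693 (0.616 to 0.780) times its untreated level, Atf4 at 0.857 (0.808 to 0.908) and Shmt2 at 0.846 (0.774 to 0.926). Psat1, at 1.09 (1.05 to 1.14), and Psph, at 1.09 (1.01 to 1.18), had intervals above 1, and those of Ddit3, Trib3, Phgdh and Mthfd2 held 1. In deficient cells, Trib3 alone was 2-fold apart, at 0.312 (0.197 to 0.482) times its untreated level (1 of 10 lower, against 1.93% of all genes, and 0 higher, against 1.58%). There Ddit3 was at 1.62 (1.39 to 1.89) times its untreated level, and Shmt2 at 0.848 (0.783 to 0.917), Psph at 0.916 (0.852 to 0.984) and Phgdh at 0.952 (0.921 to 0.984) had intervals below 1. The intervals of Atf4, Chac1, Asns, Psat1 and Mthfd2 held 1.

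The doxorubicin responses of the members were therefore set side by side. As the difference of log2 responses, deficient minus wild type, the values were 1.03 for Chac1, 0.64 for Ddit3, 0.48 for Asns, 0.17 for Atf4 and -0.88 for Trib3. For the serine and one-carbon enzymes they lay between -0.25 (Psph) and 0.00 (Shmt2). The 5 enzymes thus had smaller differences than 4 of the other 5 members, Atf4 being the exception. With 1 library a group no test of these differences can be made. Summed microglia markers were also lower in the doxorubicin library of each genotype (942 to 676 CPM in wild type and 892 to 582 CPM in deficient cells), and 0 of 10 were called higher and 1 lower in edgeR, with 6 lower before adjustment, 1 called lower in DESeq2 and 3 in limma-voom. Over all 15596 genes, 864 had an unadjusted p under 0.05 by treatment in edgeR. Of 6 measured fibroblast markers 4 were lower at an unadjusted p under 0.05 in edgeR and 0 were called, while DESeq2 and limma-voom each called 1 lower. The part of the sex-chromosome difference and of these markers in the treatment ratios was not tested.

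The genes nearest to each member were sought among 11239 protein-coding genes with a mean of at least 5 CPM, by the Euclidean distance between log2(CPM + 1) profiles over the 4 libraries after centring each. Over only 4 libraries many genes share any profile, so the names are a description. Atf4 was nearest to Rtel1 (0.011), Tubgcp4 (0.013) and Bcl10 (0.017), and no other member came within 0.41 of it. Trib3 was nearest to Mcf2l (0.102), Hvcn1 (0.106) and Aif1 (0.216), the last a microglia marker at 19.8 and 16.2 CPM in wild type and 34.4 and 16.6 CPM in deficient cells. Beside wild type untreated, 4 of the 10 microglia markers were higher in the deficient untreated library and 6 lower. Their sums were 942 CPM in wild type and 892 CPM in deficient. In the doxorubicin library 9 of the 10 were lower than in the untreated one in wild type, and 10 in deficient cells. Of all 15596 genes tested, 7849 and 7126 were lower in these comparisons. The part of microglia in the Trib3 profile was not tested. Asns was nearest to Stat3 (0.030), Tcf3 (0.037) and Osgin2 (0.058), and Phgdh to Psmg4 (0.027), Daam2 (0.029) and Ppp1r9a (0.035). The member nearest to Phgdh was Shmt2, at 0.196 and rank 298, and Shmt2 was also the member nearest to Asns, at 0.257 and rank 220.

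Among other genes reported as ATF4 targets calls went in both directions. Of 24 measured of 26 listed, 3 were called higher and 10 lower in deficient cells and 11 were not called, with a median log2 fold change of -0.46, beside the 12.6% and 10.6% of all genes called. DESeq2 called 1 higher and 8 lower, and limma-voom 5 and 11. The lower ones included Slc7a11, the cystine importer, at 209 and 145 CPM in wild type and 30.2 and 16.6 CPM in deficient cells (log2 fold change -2.96), and Stc2, a secreted glycoprotein with at most 6 counts in either deficient library (-3.64). They also included Sesn2, a stress-induced regulator of mTORC1 (-2.79), and Gdf15, a stress-induced cytokine (-3.18), which are on the list of p53 targets too. The 3 called higher, named after their values were seen, were Pycr1, a proline synthesis enzyme (0.904 and 1.83 CPM in wild type, 7.78 and 6.27 CPM in deficient cells), Pck2, the mitochondrial phosphoenolpyruvate carboxykinase (log2 fold change 0.76), and Herpud1, a factor of protein degradation at the endoplasmic reticulum (0.57). By treatment 0 of these 24 were called in edgeR's quasi-likelihood test, in DESeq2 or in limma-voom. Before adjustment edgeR had 1 higher and 1 lower with p under 0.05, where 864 of all 15596 genes had one.

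Upstream of ATF4, 1 of 12 genes for eIF2α kinases, phosphatase subunits and the exchange factor eIF2B was called higher, Eif2b5 (0.59), and 2 lower, Ppp1r15a (-0.60), the stress-induced phosphatase subunit that is itself an ATF4 target, and Eif2b2 (-0.53). DESeq2 called 1 higher and 0 lower of these 12, so both lower calls were lost there. For each list here, the edgeR shares over all genes tested were 12.6% higher and 10.6% lower. Ppp1r15a was at 87.5 and 120 CPM in wild type and at 76.5 and 60.2 CPM in deficient cells. Among 12 bZIP partners and relatives 1 was called, Cebpd, a C/EBP factor, at 127 and 149 CPM in wild type and 430 and 350 CPM in deficient cells (1.49). The C/EBP factors Cebpa (-1.13), Cebpb (-0.22) and Cebpg (0.06) were not called. Of 13 aminoacyl-tRNA synthetases reported as ATF4 targets, Sars (0.46) was called higher and Mars (-0.63) and Cars (-0.60) lower, and of 8 other cytosolic synthetases Farsb (1.41) was called higher.

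Around the serine and folate steps the calls were scattered. Over all genes tested 12.6% were called higher and 10.6% lower, and these shares apply to each list here. Of 16 further folate one-carbon enzymes 2 were called higher, among them Tyms, thymidylate synthase, which is known to be high in dividing cells (15.4 and 17.4 CPM in wild type, 47.2 and 59.4 CPM in deficient cells). The 1 called lower was the mitochondrial serine transporter Sfxn1 (-0.49), named after its value was seen, and DESeq2 called 0 of this list lower. Shmt1, the cytosolic relative of Shmt2, had 2 counts in wild type untreated and 99, 105 and 106 in wild type doxorubicin, deficient untreated and deficient doxorubicin, so 1 library alone was low, and it was not called. Gcsh (0.59) of the 4 glycine cleavage genes and Paics (0.78) of the 6 purine synthesis genes were called higher.

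On the use of serine and the methionine cycle, 3 of 11 measured genes were called lower and 0 higher. Beside this and each further list stand the 10.6% lower and 12.6% higher over all genes tested. The 3 were the membrane proteins Serinc3 (-1.21) and Serinc1 (-0.72) and the hydrolase Ahcy (-0.56). Asrgl1, an asparaginase, was called higher at 66.2 and 70.3 CPM in wild type and 307 and 334 CPM in deficient cells (2.23), as was glutamine synthetase, Glul (0.73), which is also an astrocyte marker, out of 7 genes of asparagine, aspartate and glutamine. In the glutathione list 4 of 6 were called lower, among them the synthesis genes Gss (-2.22), Gclc (-1.49) and Gclm (-1.38). Of the relatives of the members, Trib1 was called lower (-0.82), and Trib2 (0.33) and Chac2 (1.15; edgeR's quasi-likelihood test, Benjamini-Hochberg adjusted p = 0.0818) were not called. By treatment 0 of the 124 measured genes on the pathway lists were called in edgeR's quasi-likelihood test, in DESeq2 or in limma-voom. Before adjustment edgeR had 4 higher and 4 lower with p under 0.05, where 864 of all 15596 genes had one. The part of the p53 target and cell division differences between the genotype labels in these counts was not tested.

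**Figure D4:**
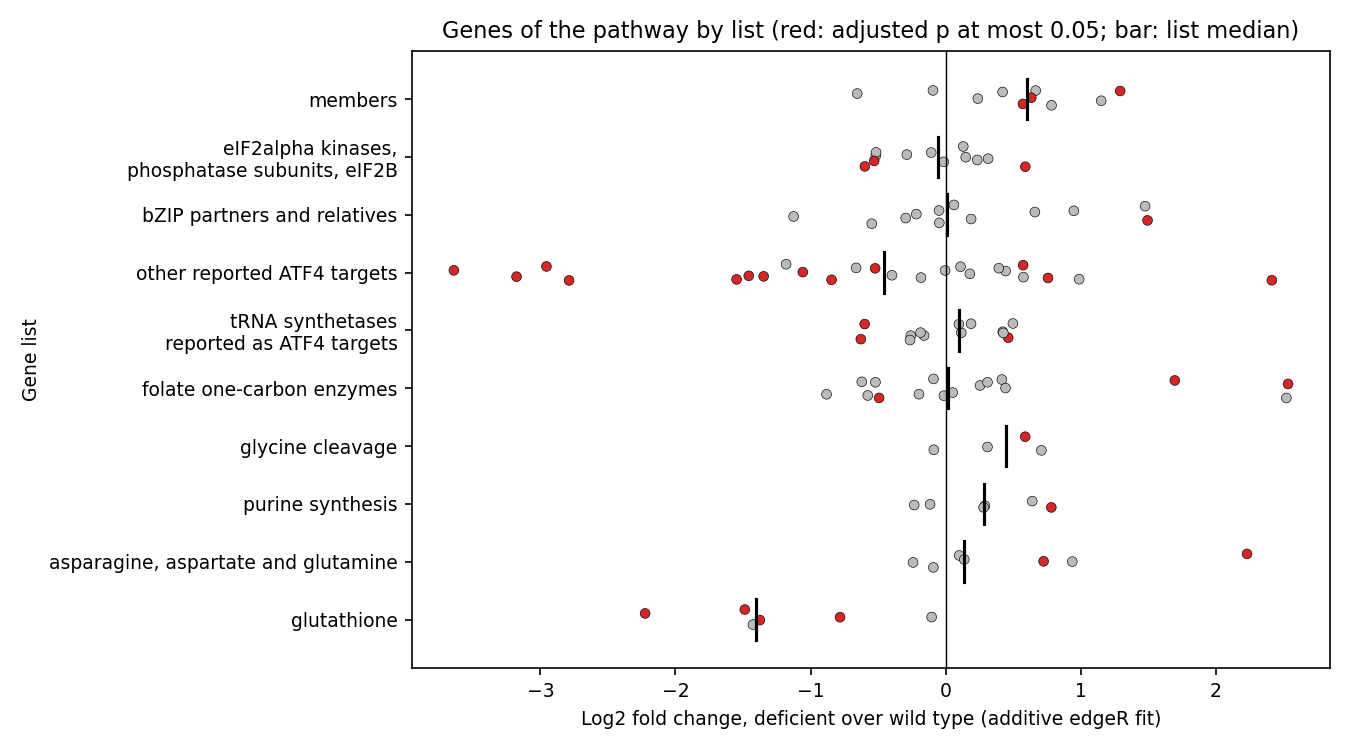
Log2 fold change of deficient over wild type from the additive edgeR model for each measured gene of the members and 9 pathway lists, with red points for an adjusted p of at most 0.05, grey points for the rest and a bar at the list's median; vertical spread within a list is for legibility only. The members' median is 0.60, that of the other reported ATF4 targets is -0.46 and that of the glutathione genes is -1.40.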

How the data were processed

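Each library had a table in which the authors gave every gene an estimated count and, scaled by length and depth, a TPM value, per the file headers. The tool DRAGEN and the build GRCm38 come from the submitters' processing notes. The version of DRAGEN, the annotation and any read filter are not stated in them or in the labels. The SMART-Seq v4 kit named in the labels' protocols does not mark strand, so reads of a gene and an overlapping antisense gene cannot be told apart. Estimated counts as deposited held fractions in 5810 to 6451 genes per library and were rounded. Of 55487 identifiers, 55227 matched GENCODE symbols and 260 did not.

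Groups followed the labels, with 1 library each. CPM used TMM factors, and 1 CPM was added before log2 ratios, which understates changes of low genes. A count of 0 allows up to 3 counts, or 0.131 to 0.174 CPM. Intervals of ratios are exact conditional binomial 95% intervals, and intervals and floors cover counting error only, since these reads carry no molecular identifiers. edgeR's quasi-likelihood test was fitted additively (common dispersion 0.0863, 14.3 prior degrees of freedom) with Benjamini-Hochberg adjustment over 15596 genes, and was tested on simulated data. The 10 members, the gene lists and the tests were chosen with earlier results of these data known. From each list up to 4 measured genes with the largest mean genotype ratio were named, with relatives of members, Creb3l1, Gdf15 and Sesn2. A gene that met this rule is not reported here. The 3 genes nearest to Atf4, Trib3, Asns and Phgdh were named. As alternatives, counts were scaled by DESeq2 size factors or totals, TPM replaced CPM, the pseudocount was 0.5 or 5 CPM, the minimum was raised to 5 CPM or dropped, and the models were refitted with DESeq2, limma-voom, without the other factor and without genes on X and Y. Software was R 4.3.3, edgeR 4.0.16, limma 3.58.1, DESeq2 1.42.0, Python 3.11.15, scipy 1.17.1 and matplotlib 3.10.9.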

Additional observations from a re-analysis of the deposited data

Results flagged for a closer look

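Psph was the member whose responses to doxorubicin had opposite signs in the 2 genotypes with both counting intervals away from 1. Its log2 ratio of doxorubicin to untreated was 0.13 in wild type and -0.13 in deficient cells, a difference of -0.25. The difference was not tested, since each group holds 1 library. On the TPM scale the wild-type value was -0.01 and the deficient one -0.23, so the opposite signs were not seen there.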

How the results depend on the processing

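The number of members at least 2-fold apart moved under some settings. In untreated cells the members higher in deficient cells went from 1 to 2 with DESeq2 size factors and to 2 with a pseudocount of 0.5 CPM, and those lower from 0 to 1 with total counts and to 1 with TPM. A pseudocount of 5 CPM gave 0 higher in the doxorubicin genotype comparison (2 otherwise), 0 lower with doxorubicin in wild type and 0 lower with doxorubicin in deficient cells (1 otherwise for each). A minimum mean of 5 CPM, which leaves out Trib3, also gave 0 lower in deficient cells. The number of members called higher in deficient cells, 3, was 2 to 4 over the alternative fits. Shmt2 lost its call with DESeq2, total counts, no minimum and the model without treatment, and Asns gained one with limma-voom and with the minimum of 5 CPM; Phgdh and Mthfd2 stayed called under all 7 alternative fits. Over all genes, 3 higher and 22 lower were called with doxorubicin, against 26 and 73 with a minimum of 5 CPM, 17 and 67 with limma-voom, 6 and 31 with DESeq2, 2 and 10 with no minimum, 0 and 13 without genes on X and Y, and 0 and 0 without genotype in the model (unadjusted p under 0.05 for 100 genes). The cause of these changes was not tested beyond what each setting leaves out. No paired analysis was possible because each group holds 1 library, and for the same reason no replicate could be left out. Trib3 and Chac1, with 29 to 143 counts, are the members that depth limits most.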
